A study of Mus musculus with 6 samples.

Results

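Variant histones are core histones made from single genes outside the large histone gene clusters, and this account follows 8 of them in mouse fetal liver cells: H2afz and H2afv, which encode the pair of H2A.Z proteins, H2afx (H2A.X), H2afj (H2A.J), H2afy and H2afy2 (macroH2A1 and macroH2A2), and H3f3a and H3f3b, which both encode H3.3. They were chosen by symbol, and all 8 of the 8 listed symbols were found among the 54232 gene IDs of each count file. All 8 passed the filter on low counts, with between 40 and 16361 counts per library. The 3 day 0 libraries came from E13.5 fetal liver cells of C57/B6 mice, purified as negative for Ter-119 (an antigen of maturing red cells) and left untreated. The 3 libraries at 30 h came from such cells cultured with erythropoietin (EPO), the hormone that drives red cell production, with the solvent DMSO added at 24 h, 6 h before harvest. Both groups carry the same labelled strain and cell type (progenitor cells), no genotype or transgene is named, and the labels do not tell animals, pools or cultures of a group apart, so the spread behind each p-value is that between these libraries and may be technical. Time in culture, EPO and exposure to DMSO changed together and cannot be told apart.

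A nucleosome wraps DNA around histones H2A, H2B, H3 and H4. The clustered histone genes are transcribed mainly in S phase, whereas variant genes can supply histones at any time and their products are placed by dedicated chaperones. H2A.Z marks promoters and is deposited by the SRCAP and p400 remodelling complexes. H2A.X is phosphorylated around DNA breaks. The macroH2As carry a large extra domain and are enriched in silent chromatin. H3.3 is deposited by HIRA at active genes and by DAXX and ATRX at repeats and telomeres. In maturing erythroblasts chromatin condenses before the nucleus is expelled, and the series title concerns chromatin and nuclear condensation in that course.

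Library totals ranged from 19241780 to 29949173 counts. Levels are counts per 1000000 (CPM) after TMM scaling, edgeR's scaling for library composition, and adjusted p-values come from edgeR's quasi-likelihood test over all 16150 genes tested. Erythroid markers had a summed level of 1408 to 1567 CPM at day 0 and 115796 to 168586 CPM at 30 h, and Kit, a progenitor receptor, was at 209 to 233 CPM at day 0 and 27.3 to 49.1 CPM at 30 h. Hepatoblast markers were present too, at a summed level of 13909 to 15798 CPM at day 0 and 829.97 to 2393 CPM at 30 h. The 30 h replicate 3 library stood apart: the chi-square of its counts per degree of freedom was 99.8 against replicate 1 and 55.1 against replicate 2, and 12.1 between those replicates. Where a count of calls outside the marker lists, or a call of one of the 8 genes, changed without it, that value is given. The counts of calls in the marker lists were not recomputed without it.

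Of the 8 genes, 5 rose and 2 fell at 30 h, and H2afx did not pass the test. Both H2A.Z genes, H2afj and both H3.3 genes were higher, while both macroH2A genes were lower. Over all genes tested 34.4% were called higher and 40.1% lower. The 30 h and day 0 ranges did not overlap for any of the 8, a separation shared by 79.7% of all genes tested. Their median log2 change was 0.66 against -0.09 over all genes. In these bulk samples fewer cells of a type and less RNA per cell cannot be told apart.

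Promoter sequences were read from RefSeq (build GRCm38.p6) for 7 of the 8 genes, named there H2az1, H2az2, H2aj, Macroh2a1, Macroh2a2, H3f3a and H3f3b. Shown are the 250 bases before the start site of 4 genes: the H3.3 pair, which encodes 1 protein from unlike promoters, H2afz as a gene that rose, and H2afy2 as the one with the largest fall. Capitals mark the letters CCAAT on either strand (ATTGG on the printed strand), the core of the CCAAT box, which is common in histone and cell cycle promoters.
H3f3a, chr1:180813606-180813855, minus strand: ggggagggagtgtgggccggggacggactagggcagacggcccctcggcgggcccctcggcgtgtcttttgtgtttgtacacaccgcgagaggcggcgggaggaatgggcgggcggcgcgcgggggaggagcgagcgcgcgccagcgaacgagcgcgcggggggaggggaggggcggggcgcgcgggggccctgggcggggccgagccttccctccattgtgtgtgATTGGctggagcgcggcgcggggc
H3f3b, chr11:116024505-116024754, minus strand: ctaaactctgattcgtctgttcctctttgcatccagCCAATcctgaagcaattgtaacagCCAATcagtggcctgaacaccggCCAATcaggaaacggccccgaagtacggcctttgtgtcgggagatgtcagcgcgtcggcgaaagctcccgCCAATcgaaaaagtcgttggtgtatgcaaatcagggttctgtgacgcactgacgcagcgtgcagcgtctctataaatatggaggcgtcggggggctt
H2afz, chr3:137864237-137864486, plus strand: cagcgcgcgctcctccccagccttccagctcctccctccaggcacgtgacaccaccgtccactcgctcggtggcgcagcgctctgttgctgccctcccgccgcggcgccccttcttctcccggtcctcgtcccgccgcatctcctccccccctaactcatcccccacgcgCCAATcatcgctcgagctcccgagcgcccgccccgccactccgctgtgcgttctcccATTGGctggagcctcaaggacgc
H2afy2, chr10:61783865-61784114, minus strand: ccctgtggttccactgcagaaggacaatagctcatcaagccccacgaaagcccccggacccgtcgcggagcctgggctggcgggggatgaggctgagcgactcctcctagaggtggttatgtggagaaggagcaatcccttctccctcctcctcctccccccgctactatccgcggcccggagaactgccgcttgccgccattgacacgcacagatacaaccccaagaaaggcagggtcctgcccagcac
The letters CCAAT were found in 5 of the 7 windows and in 33.8% of 32851 RefSeq windows of the same length. H2afv and H3f3b each held 4 copies, H2afj 3, H2afz 2 and H3f3a 1, while the windows of H2afy and H2afy2 held none. TATAAA was in the H3f3b window only, against 12.4% of all windows, and GGGCGG, a GC box, was in 5 of 7 against 32.7%. AGATAA, a form of the GATA motif, was in 0 of 7 windows against 9.99% of all. GC content was 77.2% in the H3f3a window and 54% in that of H3f3b. The RefSeq starts and windows of H3f3a, H3f3b, H2afy and H2afy2 lie inside the longer GENCODE spans of these genes. The windows of H2afz and H2afv lie outside their genes, and that of H2afj overlaps its gene by a few bases. All 4 motifs were searched on both strands, and a match describes letters only.

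The H2A.Z genes rose together. H2afz (ENSMUSG00000037894, chr3:137864487-137866922, plus strand, mm10) had 16.7, 16.97 and 18.4 CPM in day 0 replicates 1, 2 and 3 and 33.5, 36.1 and 47.5 CPM in 30 h replicates 1, 2 and 3. Every 30 h library was above every day 0 library, with replicate 3 the highest. The rise was 2.25-fold, with a log2 change of 1.17 ± 0.15 (SE) and an edgeR adjusted p of 0.000185. H2afv (chr11:6427229-6444443, minus strand), which encodes the close H2A.Z.2 protein, had 115, 106 and 108 CPM at day 0 and 175, 182 and 227 CPM at 30 h. The groups again did not overlap, and the rise was smaller, at 1.78-fold (log2 change 0.83 ± 0.12 SE, edgeR adjusted p = 0.000414). With scaling by library totals alone H2afv still passed, with a log2 change of 0.34 (edgeR adjusted p = 0.0253).

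The ratio within a pair of genes in 1 library does not depend on library scaling. H2afz made up 11.8%, 12.9% and 13.54% of the summed H2A.Z counts per kilobase of exon at day 0 and 15.0%, 15.4% and 16.1% at 30 h. Its mean share went from 12.7% ± 0.870 to 15.5% ± 0.582 (SD, n = 3 each). The exact permutation test (two-sided) gave p = 0.1, and 3 libraries against 3 cannot give less. H2afv therefore stayed the more abundant H2A.Z transcript by this count. The H2afz value carries a counting limit: 35.4% of its 50-base stretches also occur in annotated transcripts elsewhere, mainly of Tmcc1 and of the processed pseudogene Gm8203, against 0% for H2afv. Tmcc1 itself was at 13.6 ± 0.765 and 13.3 ± 1.47 CPM (SD, n = 3; edgeR adjusted p = 0.807), and Gm8203 had 0 counts. The sources used here do not say how reads matching several places were counted, so the level of H2afz is uncertain.

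H2afx and H2afj encode the other H2A variants with a histone fold close to that of clustered H2A. H2afj (chr6:136808244-136810074, plus strand) had 71.3, 69.7 and 71.9 CPM at day 0 and 165, 170.2 and 217 CPM at 30 h. It had the largest rise among the H2A genes, 2.59-fold, with no overlap of the groups (log2 change 1.37 ± 0.13 SE, edgeR adjusted p = 3.18e-05). H2afx (chr9:44334694-44336077, plus strand) stood at 249, 249.7 and 244 CPM at day 0 and 291, 279 and 262 CPM at 30 h. The 30 h libraries were slightly above all day 0 libraries, yet the log2 change of 0.16 ± 0.089 (SE) did not pass (edgeR adjusted p = 0.127).

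The direction of H2afx depends on the scaling. With library totals alone its log2 change was -0.32 (edgeR adjusted p = 0.0129). With each library's dependence on GC content removed it was 1.25 (edgeR adjusted p = 1.29e-05), and its longest transcript has a GC content of 62.3%, the highest of the 8. It also passed as higher with DESeq2 (0.22, adjusted p = 0.00281) and without 30 h replicate 3 (0.21, edgeR adjusted p = 0.00397). No direction is therefore given for H2afx. H2afx shares 6.14% and H2afj 2.19% of their 50-base stretches with transcripts elsewhere, among them clustered H2A genes.

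Both macroH2A genes fell. H2afy (chr13:56073619-56136361, minus strand) had 402, 418 and 391 CPM at day 0 and 106, 101 and 87.1 CPM at 30 h. All 3 libraries at 30 h were far below all 3 at day 0, a 4.11-fold fall (log2 change -2.04 ± 0.11 SE, edgeR adjusted p = 2.35e-06). H2afy2 (chr10:61738665-61784147, minus strand) had 26.7, 25.5 and 25.2 CPM at day 0 and 2.12, 2.92 and 2.52 CPM at 30 h. This was the largest change of the 8 genes, 10.3-fold lower (log2 change -3.36 ± 0.14 SE, edgeR adjusted p = 1.07e-06), and rests on 43, 49 and 40 counts in the 30 h libraries. Over 17 other settings the log2 change lay between -2.53 and -1.85 for H2afy and between -3.85 and -3.04 for H2afy2, past the threshold in each.

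H2afy2 also fell relative to H2afy in every library. Its share of the macroH2A pair, in counts per kilobase, was 17.2%, 16.1% and 16.8% at day 0 and 5.89%, 8.29% and 8.30% at 30 h. Its mean share went from 16.7% ± 0.578 to 7.50% ± 1.39 (SD, n = 3 each; two-sided exact permutation p = 0.1, the smallest possible). The size of this change depends on the lengths: it was -9.21 percentage points by summed exons, -6.01 by the longest transcript and -3.49 without length correction. H2afy has splice forms, macroH2A1.1 and macroH2A1.2, that bind ADP-ribose or do not, and counts per gene do not separate them.

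Markers of other liver cells fell in the same libraries as the macroH2A genes, where 40.1% of all genes tested were called lower and 34.4% higher. Of 10 hepatoblast markers 8 were lower and 0 higher, and Afp, the most abundant, went from between 6877 and 7317 CPM to between 579 and 1772 CPM. Of 8 mesenchymal markers 7 were lower and 0 higher, with a summed level of 1505 to 1918 CPM at day 0 and 24.2 to 56.9 CPM at 30 h. Of 8 endothelial markers 7 were lower and 1 higher (272 to 294 and 147 to 187 CPM summed). All 8 progenitor markers were lower as well (704 to 749 and 183 to 217 CPM summed). Among the 30 h libraries, replicate 1 had the lowest H2afy2 level, though 43, 49 and 40 counts hardly separate replicates 1, 2 and 3. It also had the lowest sum of each marker list other than the progenitors, erythroid markers included. Its H2afy level and progenitor sum were the highest. These ranks of 3 libraries were not tested. None of the hepatoblast, mesenchymal, endothelial and progenitor markers was at 0 in all 30 h libraries. The part of these cells in the fall of H2afy and H2afy2 was not tested.

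Macrophage, granulocyte and mast cell, and megakaryocyte markers did not move 1 way. Of these lists 3 of 8, 3 of 8 and 1 of 6 genes were higher and 2, 3 and 3 lower, beside 34.4% and 40.1% of all genes. Their summed levels were 208 to 230.1, 3178 to 3286 and 534 to 631 CPM at day 0, and 152 to 231, 3665 to 5688 and 560.4 to 956 CPM at 30 h. Lymphoid markers were low, at 28.3 to 29.8 and 16.3 to 20.4 CPM summed, with 0 of 7 tested genes higher, 3 lower, and Cd3e at 0 in all 30 h libraries. The part of these cells in the 8 histone genes was not tested.

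**Figure D1:**
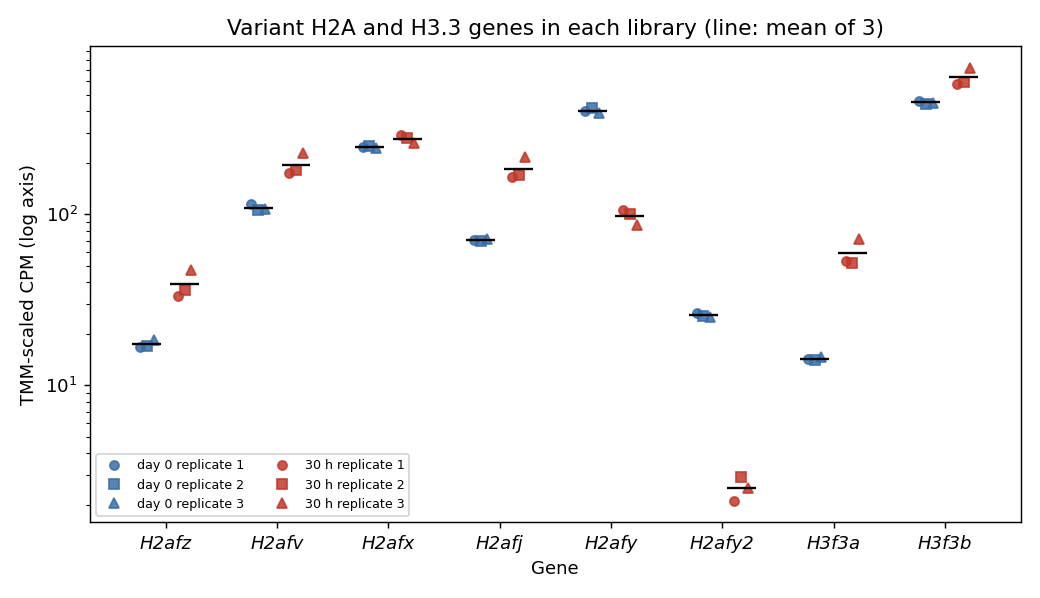
TMM-scaled CPM of the 8 genes in each library, on a log axis; blue is day 0, red is 30 h, symbols are replicates 1 to 3 and lines are means of 3. H2afy2 dropped from between 25.2 and 26.7 to between 2.12 and 2.92 CPM, while H3f3a went from between 14.0 and 14.7 to between 52.1 and 72.2 CPM.

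The H3.3 genes rose to different extents. H3f3a (chr1:180800832-180813943, minus strand) had 14.3, 14.0 and 14.7 CPM at day 0 and 53.4, 52.1 and 72.2 CPM at 30 h. The groups lay far apart, and the rise of 4.13-fold was the largest of the 8 genes (log2 change 2.05 ± 0.15 SE, edgeR adjusted p = 9.77e-06). H3f3b (chr11:116021912-116027962, minus strand) had 463, 445 and 450.2 CPM at day 0 and 578, 595 and 721 CPM at 30 h. It rose 1.40-fold without overlap of the groups (log2 change 0.48 ± 0.11 SE, edgeR adjusted p = 0.00451). That call is lost with library totals alone (log2 change -0.01, edgeR adjusted p = 0.926) and with upper-quartile scaling (0.36, edgeR adjusted p = 0.0621).

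H3f3a supplied 2.56%, 2.61% and 2.70% of the H3.3 counts per kilobase at day 0 and 7.28%, 6.92% and 7.83% at 30 h. Its mean share went from 2.62% ± 0.0691 to 7.34% ± 0.458 (SD, n = 3 each; two-sided exact permutation p = 0.1, the smallest possible). Both genes encode H3.3, so by these counts nearly all H3.3 transcripts came from H3f3b in both groups. The level of H3f3a is uncertain. Of its 50-base stretches 13.4% also occur in annotated transcripts elsewhere, and 17 pseudogenes share at least 50 such stretches with it. Those pseudogenes held 169 counts at day 0 and 472 at 30 h over all libraries of a group, against 1476 and 3103 for H3f3a.

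H3f3a also has neighbours on the opposite strand. The non-coding gene Gm17275 shares 638 exon bases with H3f3a and rose 17.6-fold, from 0.571 ± 0.153 to 10.1 ± 0.656 CPM (SD, n = 3; edgeR adjusted p = 1.86e-06). H3f3aos, an antisense gene, shares 160 exon bases and rose 4.10-fold (edgeR adjusted p = 0.000269). Whether counting used strand is not given, so reads of the overlap may have been set aside or assigned to either gene. For H2afy2, Aifm2 on the opposite strand overlaps 233 exon bases and rose 1.62-fold (edgeR adjusted p = 0.000738), opposite to H2afy2.

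**Figure D2:**
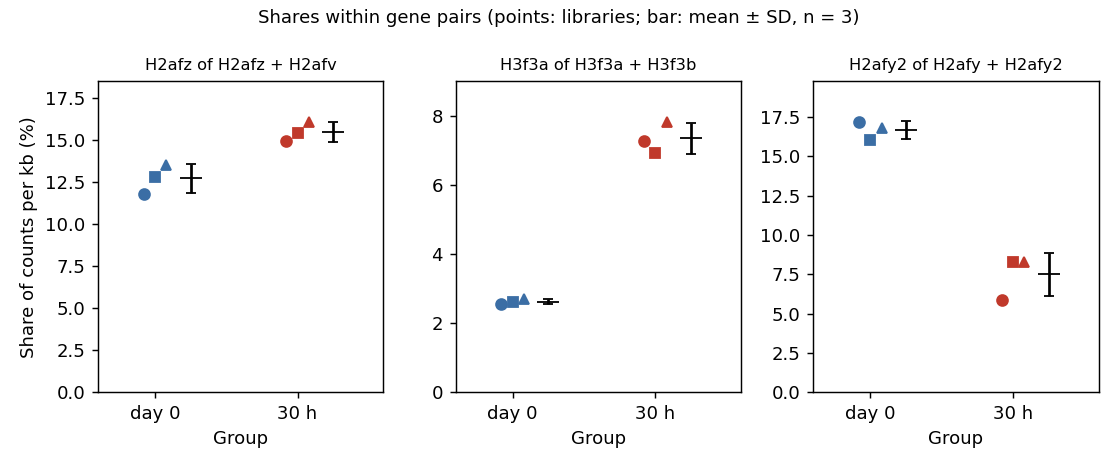
Share of H2afz, H3f3a and H2afy2 in the counts per kilobase of their gene pairs, in percent from 0; points are libraries, and bars beside them are mean ± SD of 3. The share of H3f3a rose from 2.62% to 7.34% and that of H2afy2 fell from 16.7% to 7.50%, with no overlap in any of the pairs.

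Levels per kilobase put the genes in order within a library. At day 0 the order by mean was H2afx (179), H3f3b (152), H2afv (67.0), H2afy (59.2), H2afj (38.8), H2afy2 (11.9), H2afz (9.77) and H3f3a (4.09 CPM per kilobase of annotated exon), and no neighbours in it overlapped. At 30 h it was H3f3b (212), H2afx (200.4), H2afv (119), H2afj (101), H2afz (21.98), H3f3a (16.9), H2afy (14.4) and H2afy2 (1.16). There H3f3b and H2afx, H2afv and H2afj, H2afz and H3f3a, and H3f3a and H2afy had overlapping ranges. Ranges between libraries do not cover the counting limit from shared sequence given above for H2afz and H3f3a. The places of these genes, and of genes next to them, are therefore uncertain. H2afy fell from the fourth to the seventh place. By the length of the longest transcript, shorter than the summed exons for H2afy, it stood at 100.4 CPM per kilobase at day 0, the third, and 24.4 at 30 h, the sixth. On that length H3f3b was also above H2afx at day 0 (180.0 against 179).

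By counts per kilobase, the make-up of the H2A variants shifted from macroH2A to H2A.J and H2A.Z. These shares carry no correction for GC content. With the GC trend removed the log2 changes were 1.73 for H2afj, 1.27 for H2afz, 0.88 for H2afv and 1.25 for H2afx. H2afv then rose less than H2afx, so a gain of H2A.Z over H2A.X is not fixed. The macroH2A genes still fell (-1.85 for H2afy and -3.04 for H2afy2). H2afy and H2afy2 together held 19.5% ± 0.454 of the counts per kilobase of the 6 H2A genes at day 0 and 3.42% ± 0.486 at 30 h (n = 3 each, ± SD). H2afj went from 10.6% ± 0.244 to 21.9% ± 2.11 and H2afv from 18.3% ± 0.638 to 26.0% ± 2.28. H2afz went from 2.67% ± 0.171 to 4.78% ± 0.634. H2afx held the largest share in all 6 libraries by summed exon length, 48.9% ± 0.328 at day 0 and 44.0% ± 4.53 at 30 h, and was at 47.5%, 45.6% and 38.8% in 30 h replicates 1, 2 and 3. Each of these shares separated the groups, and each exact permutation test (two-sided) gave p = 0.1. By the longest transcript the macroH2A share was 27.2% ± 0.627 at day 0 and 5.33% ± 0.779 at 30 h, and that of H2afz 3.93% ± 0.253 and 7.53% ± 0.993. Without length correction the macroH2A share was 49.1% ± 0.857 and 12.7% ± 1.82. The share of H2afx has no fixed direction: by the longest transcript its groups overlapped (43.3% ± 0.171 and 41.7% ± 4.33), and without length correction it went from 28.3% ± 0.109 to 35.0% ± 3.44 and H2afy held more at day 0 (46.1% ± 0.911).

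**Figure D3:**
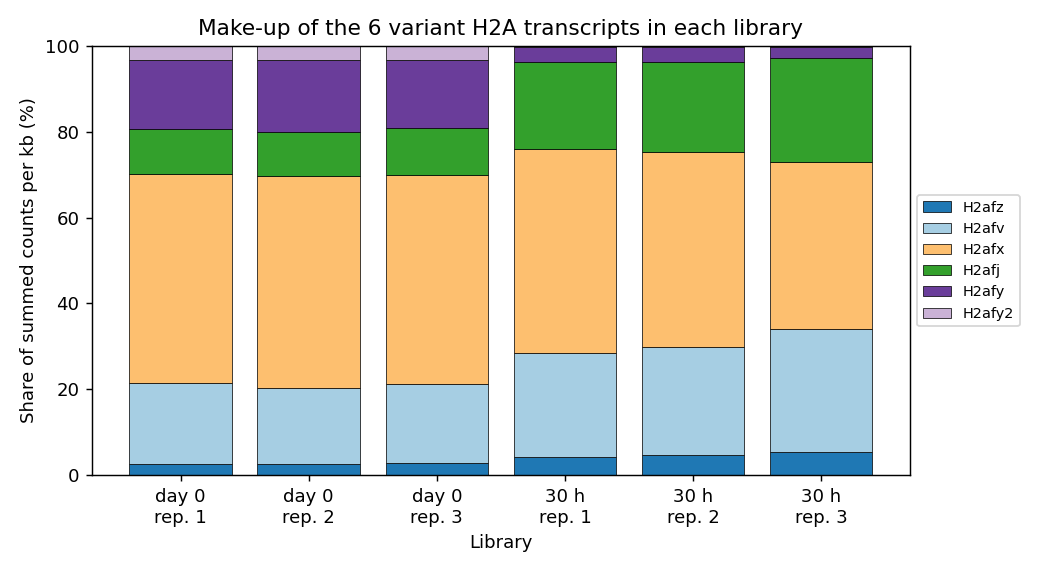
Share of each of the 6 variant H2A genes in their summed counts per kilobase, in percent, as 1 stacked bar per library. The macroH2A genes H2afy and H2afy2, at the top of each bar, fill 19.5% on average at day 0 and 3.42% at 30 h, and H2afj grows from 10.6% to 21.9%.

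The clustered histone genes hardly appeared in these libraries. The 18 clustered H2A genes in the files summed to 6.53 to 6.64 CPM at day 0 and 8.09 to 10.3 CPM at 30 h, against 858 to 885 and 771 to 844 CPM for the 6 H2A variants. For H3, 12 clustered genes summed to 4.19 to 5.05 and 4.64 to 7.30 CPM, against 459 to 477 and 632 to 794 CPM for H3f3a and H3f3b. Messenger RNAs of clustered histones mostly lack a poly(A) tail, and how RNA was selected for the libraries is not given beyond a standard protocol, so the ratio of variant to clustered transcripts in the cells cannot be read from these values.

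**Figure D4:**
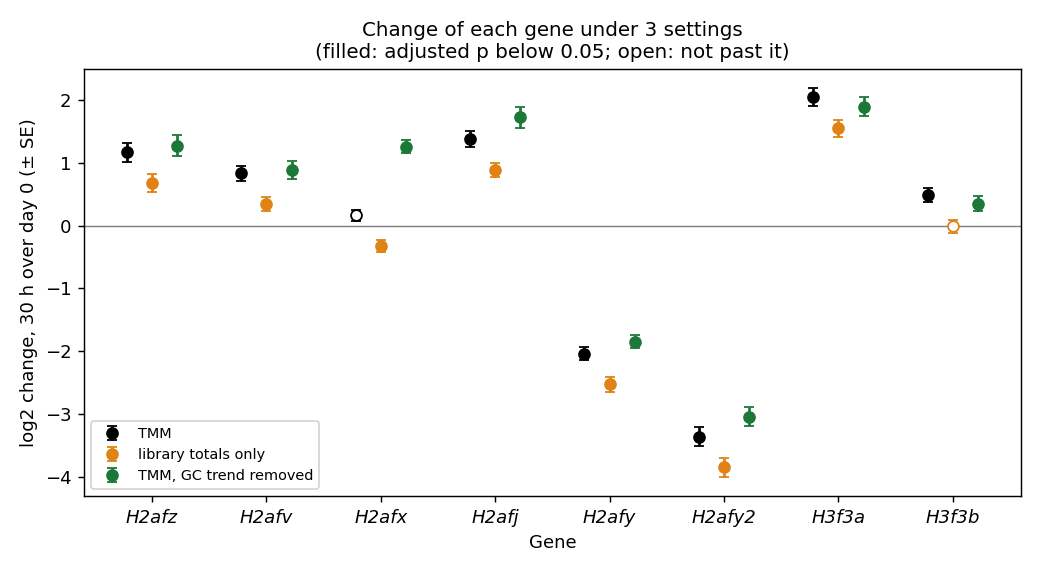
Log2 change from day 0 to 30 h of each gene, ± SE, with TMM scaling, library totals alone, and TMM with the GC trend removed; filled points passed an adjusted p of 0.05 and open points did not. H2afx sits at 0.16, -0.32 and 1.25, and H3f3b at 0.48, -0.01 and 0.35, while the other 6 genes keep their direction.

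Scaling shifts all genes together. With library totals alone the median log2 change of all genes tested was -0.58 and that of the 8 genes 0.16, and 4 were higher and 3 lower, beside 22.3% and 54.4% of all genes. H2afz, H2afv, H2afj and H3f3a rose and both macroH2A genes fell under each of 17 other settings. The lowest log2 changes among those settings were 0.67 for H2afz, 0.34 for H2afv, 0.88 for H2afj and 1.55 for H3f3a. The 5 genes that rose were all highest in 30 h replicate 3, as were 49.9% of all genes called higher. Without that library their log2 changes were 1.01 (H2afz), 0.71 (H2afv), 1.24 (H2afj), 1.88 (H3f3a) and 0.38 (H3f3b), each past the threshold, and 6 genes were called higher, H2afx included, and 2 lower, beside 37% and 41.7% of all genes.

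Genes whose products place, remove or read these histones, and as a further group other variant core histones, were taken as 8 lists with 66 genes, of which 61 were tested. Of the 61, 24 were higher and 14 lower, beside 34.4% and 40.1% of all genes, whose median log2 change was -0.09. Scaling by library totals alone gave 12 higher and 29 lower, beside 22.3% and 54.4% of all genes. Of these 61 genes 44 were lowest of the 30 h libraries in replicate 3, against 43.5% of all genes, and without that library 35 were higher and 14 lower, beside 37% and 41.7% of all genes. No list was tested against other genes.

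For H3.3, 4 of 7 deposition genes rose and 1 fell, beside 34.4% and 40.1% of all genes, with a median log2 change of 0.51. Ubn2 rose 2.20-fold and Ubn1, the most abundant, went from 94.2 ± 1.85 to 198 ± 45.8 CPM (SD, n = 3; edgeR adjusted p = 0.000518); both are subunits of the HIRA complex. In 30 h replicates 1, 2 and 3 Ubn1 stood at 244, 198 and 153 CPM. Hira, the subunit that gives the complex its name, was lower, from 32.1 ± 0.598 to 19.7 ± 1.43 CPM (edgeR adjusted p = 0.000352). Daxx did not pass, at 74.5 ± 0.113 and 66.4 ± 15.9 CPM (edgeR adjusted p = 0.396). Atrx, named with DAXX above, was higher, from 63.1 ± 5.78 to 89.5 ± 19.8 CPM (edgeR adjusted p = 0.0255). Atrx stood at 108, 92.3 and 68.4 CPM in 30 h replicates 1, 2 and 3. Of the 7, 3 were higher and 3 lower with library totals alone, beside 22.3% and 54.4% of all genes. Without 30 h replicate 1, 4 were higher and 2 lower, beside 35.2% and 38.9% of all genes.

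The list of chaperones that hand H3 and H4 to replicating DNA also holds related factors. It gave 4 of 8 higher and 0 lower, beside 34.4% and 40.1% of all genes, with a median log2 change of 0.44. Cdan1, a related factor and not itself such a chaperone, was among the 4 (log2 change 0.43, edgeR adjusted p = 0.0360). Asf1b, which is tied to proliferation, rose 3.40-fold, from 83.1 ± 1.57 to 283 ± 7.43 CPM, with an edgeR adjusted p of 1.77e-06. Rbbp4, a subunit of the CAF-1 complex and the most abundant of the list, rose 1.62-fold (edgeR adjusted p = 0.000137), a call lost with library totals alone (log2 change 0.20, edgeR adjusted p = 0.0544). Without 30 h replicate 3, 7 of the 8 were higher, beside 37% of all genes. With library totals alone 2 were higher and 2 lower, beside 22.3% and 54.4%. With the GC trend removed 6 were higher and 1 lower, beside 37.9% and 36.9%.

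The genes of the H2A.Z deposition complexes split, with 7 of 14 higher and 4 lower, beside 34.4% and 40.1% of all genes (median log2 change 0.35). Znhit1, a subunit of the SRCAP complex, rose 2.20-fold, from 48.5 ± 1.57 to 107 ± 15.1 CPM (SD, n = 3; edgeR adjusted p = 6.89e-05). The AAA ATPase genes Ruvbl1 and Ruvbl2, shared by several complexes, fell. Ruvbl1 went from 83.6 ± 1.81 to 35.7 ± 2.36 CPM, with an edgeR adjusted p of 1.32e-05, and Ruvbl2 from 363 ± 9.43 to 177 ± 21.0 CPM (edgeR adjusted p = 7.57e-05). Library totals alone gave 3 higher and 6 lower, beside 22.3% and 54.4% of all genes. Without 30 h replicate 3, 9 were higher and 4 lower, beside 37% and 41.7%. After removal of the GC trend the log2 change was 2.00 for Znhit1, against 1.14, and -0.43 for Ruvbl2, against -1.04, both past the threshold. Of 4 genes that remove or read H2A.Z, 1 rose, Pwwp2a, at 1.41-fold (edgeR adjusted p = 0.00571), with a log2 change of 0.01 by library totals alone (edgeR adjusted p = 0.942). Without 30 h replicate 3, 3 of the 4 were higher, beside 37% of all genes. Without 30 h replicate 1, 1 was higher and 1 lower, beside 35.2% and 38.9%. Anp32e, a chaperone that takes H2A.Z out of nucleosomes, was at 455 ± 4.90 and 514 ± 55.4 CPM (edgeR adjusted p = 0.159), past the threshold as higher without 30 h replicate 3 (log2 change 0.25, edgeR adjusted p = 0.00245), and its log2 change was -0.31 with library totals alone.

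The list of kinases, phosphatases and readers of phosphorylated H2A.X also holds ubiquitin ligases that act at DNA breaks. It gave 4 of 11 higher and 3 lower, beside 34.4% and 40.1% of all genes (median log2 change 0.18). Rnf168, a ubiquitin ligase at DNA breaks, rose 3.39-fold, from 35.8 ± 1.55 to 121 ± 8.16 CPM, with an edgeR adjusted p of 3.02e-06, and Trp53bp1, a reader of damaged chromatin, fell from 44.1 ± 1.36 to 20.3 ± 5.85 CPM (edgeR adjusted p = 0.00122). Ppp4c, the most abundant, is a phosphatase of H2A.X and did not pass, at 266 ± 10.7 and 301 ± 21.6 CPM (edgeR adjusted p = 0.124). Without 30 h replicate 3 the list had 6 higher and 3 lower, beside 37% and 41.7% of all genes. With library totals alone it had 3 higher and 5 lower, beside 22.3% and 54.4%. Among 5 ADP-ribose enzymes and macroH2A partners, 1 rose and 1 fell: Parp2 went from 60.5 ± 1.07 to 79.9 ± 8.03 CPM, with an edgeR adjusted p of 0.00791, and Parp1, the main poly(ADP-ribose) polymerase, from 482 ± 18.6 to 150 ± 43.1 CPM (edgeR adjusted p = 0.000136). By library totals alone 0 were higher and 3 lower, beside 22.3% and 54.4% of all genes, and Parp2 had a log2 change of -0.09. Without 30 h replicate 3, 2 were higher and 1 lower, beside 37% and 41.7%.

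General histone chaperones gave 5 of 9 lower and 0 higher, beside 40.1% and 34.4% of all genes, with a median log2 change of -0.46. Npm1, a nucleolar chaperone, was the most abundant and fell most, from 1032 ± 38.4 to 586 ± 66.3 CPM (edgeR adjusted p = 0.000237). With library totals alone 8 of the 9 were lower, beside 54.4% of all genes. Without 30 h replicate 3, 1 was higher and 5 lower, beside 37% and 41.7% of all genes. Among other variant core histones 3 of 8 listed genes passed the filter and all 3 rose, beside 34.4% of all genes. Cenpa, the centromeric H3 variant, went from 198 ± 10.1 to 624 ± 133 CPM (edgeR adjusted p = 3.73e-05). Hist3h2a (means of 3.53 and 5.30 CPM) and Hist3h2ba (3.90 and 6.28 CPM) were low, and Hist3h2a is also counted with the clustered H2A genes above. Of the 3, 1 was higher with library totals alone, beside 22.3% of all genes.

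**Figure D5:**
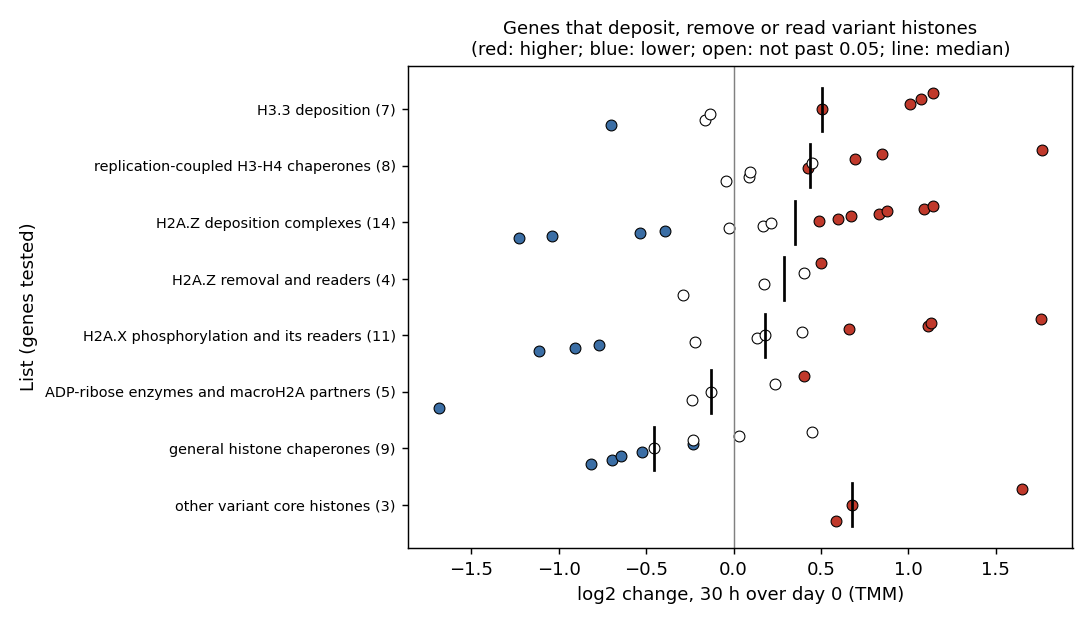
Log2 change from day 0 to 30 h (TMM) of the genes in 8 lists, with the number tested in parentheses; red points were called higher, blue lower, open points did not pass, and lines are list medians. The general histone chaperones have 5 blue and 0 red points, while the H2A.Z deposition complexes have 7 red and 4 blue.

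The genes whose course over the 6 libraries was most like that of each histone gene were found by the root-mean-square difference of log2 CPM, centred on the day 0 mean, among 9125 protein-coding genes with a mean of at least 10 CPM. For H2afz they were Atox1 (a copper chaperone, difference 0.0281), Swi5 and Gemin7, and for H2afv Oaf (0.0215), Higd2a and Pradc1. For H2afj they were Snf8 (0.0335), Ciao2b and Knstrn, and for H2afx Slc31a1 (0.0252), Atp2c1 and Cpsf4. H2afy was nearest to Srm, the spermidine synthase gene (0.0429), Smo and Cebpa. H2afy2 had no equally close match: its nearest genes were Pkdcc (0.104), Arhgef25 and Abca1. H3f3a was nearest to Tmem30a (0.0330), Isca2 and C330018D20Rik, and H3f3b to Cox5a (0.0220), Ppp1r35 and 9530068E07Rik. The measure uses 6 libraries of 2 groups, so it mostly matches the size of the change. The likeness is tied to the scaling: with the GC trend removed the log2 change was 1.95 for Atox1 against 1.27 for H2afz, -0.93 for Cebpa against -1.85 for H2afy, -2.10 for Pkdcc against -3.04 for H2afy2, and 1.71 for Ppp1r35 against 0.35 for H3f3b.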

How the data were processed

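RNA-seq gene counts of 6 libraries (3 at day 0 and 3 at 30 h, groups and replicate numbers from the titles) were used as the authors deposited them, as raw counts per Ensembl gene ID, 1 table per library. Tools listed without roles in the submitters' processing notes are HTSeq 0.6.1p1, cutadapt 1.13, STAR and DESeq2, beside the build mm10; strand setting, annotation and treatment of multiply mapped reads are not given in the sources used here. Of 54232 IDs, 54165 were matched to GENCODE M21 (the same assembly as mm10), which gave symbols, positions and exon lengths.

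Genes kept by filterByExpr (16150) were scaled by TMM and tested with edgeR 4.0.16 (R 4.3.3; robust quasi-likelihood F test, Benjamini-Hochberg, threshold 0.05); standard errors came from the F statistic. Shares used two-sided exact permutation tests (scipy 1.17.1). Alternatives were 4 other scalings, 2 other filters, DESeq2 1.42.0, limma-trend 3.58.1, a test against a 1.5-fold change, a replicate block, each library left out, and removal of each library's GC trend, added after seeing the data. Sharing of sequence was counted over 50-base stretches of GENCODE transcripts on both strands. No libraries were merged, as counts within a group differed beyond sampling noise (lowest chi-square 4.29 per degree of freedom).

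The 8 genes and the lists were chosen with earlier results of these data known. Named partner genes are, in each list, the most abundant, the largest rise and fall that passed, and the smallest adjusted p. Atrx, Cdan1, Nap1l1, Hist3h2a and Hist3h2ba are named outside this rule. Daxx was added after its values were seen, as were overlapping genes and pseudogenes. From each marker list the rule takes the most abundant gene; these beyond Afp and Kit are Hbb-bs (320 to 403 and 65692 to 106624 CPM), Egfl7 (91.1 to 101 and 110 to 157), Col1a1 (602 to 798 and 5.28 to 12.6), Csf1r (64.8 to 73.1 and 52.4 to 84.0), Mpo (1854 to 1963 and 501 to 608), Pf4 (150.4 to 178 and 301 to 654) and Cd79b (16.5 to 17.4 and 9.82 to 13.0), at day 0 and 30 h.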

Additional observations from a re-analysis of the deposited data

How the results depend on the processing

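Of 925 values recomputed under other settings, for 56 results, 876 kept their direction and their side of the threshold or stayed close. A count of calls was taken as close within 1.5-fold of its main value, which covers 35 partner genes higher against 24. A share was taken as close if it kept its direction and its change moved by less than the larger SD of the groups. With library totals alone the log2 change of H2afx became -0.32 and that of H3f3b -0.011, 12 partner genes were higher and 29 lower, and among other named genes the log2 changes turned to -0.31 for Anp32e, -0.31 for Ppp4c, -0.086 for Parp2, -0.30 for Slc31a1, -0.35 for Atp2c1, -0.31 for Cpsf4, -0.020 for Cox5a, -0.00012 for Ppp1r35 and -0.043 for 9530068E07Rik. With that setting 22.3% of all genes were called higher and 54.4% lower, and their median log2 change moved from -0.09 to -0.58. With upper-quartile scaling H3f3b was at 0.36 and not past the threshold, and against a 1.5-fold change it was not either (0.48). Against that change 12 partner genes were higher and 5 lower, beside 23.6% and 30.2% of all genes. H2afx passed with DESeq2 (0.22), after removal of the GC trend (1.25) and without 30 h replicate 3 (0.21, within a range of 0.14 to 0.21 over the left-out libraries), and Atp2c1 was at -0.18 with the GC trend removed; the cause was not tested. The change in the share of H2afz in its pair was 2.77 percentage points and 3.85 by the longest transcript, that of H3f3a 4.72 and 5.46 without length correction, and that of H2afy2 -9.21, with -3.49 without length correction and -6.01 by the longest transcript, as lengths weight the genes of a pair. Leaving out each library moved these shares between 2.31 and 3.17, 4.48 and 4.93, and -9.61 and -8.41 points. The counts of partner genes then lay between 20 and 35 higher and 13 and 18 lower. Over all genes tested 30.8% to 37% were called higher in those fits, and 36.5% to 41.7% lower.

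With the replicate number as a block the log2 change was 1.36 for H2afj and 0.47 for H3f3b (edgeR adjusted p = 0.0115). Of the 53 named genes and counts fitted 0 changed direction or side of the threshold. The partner genes went from 24 to 23 higher and from 14 to 13 lower, beside 32.5% and 38.9% of all genes with the block. Cdan1 (edgeR adjusted p = 0.0655) and Nap1l1 (0.0914) no longer passed. The numbers share no stated origin. The correlations of same-numbered libraries' deviations were -0.105, 0.105 and -0.0293. That of 0.141 between day 0 replicate 1 and 30 h replicate 3 was higher than any of them. These values gave no sign of pairing, but with 3 libraries per group they cannot exclude it. H2afy2 rests on 40 to 49 counts per 30 h library, which limits the precision of its level there, and lengths and shared sequence limit the levels of H2afz and H3f3a.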
